A study of Homo sapiens with 4 samples.

Results

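The genes described here are 43 whose mRNAs encode parts of the nuclear pore, the receptors that carry cargo through it and the lamins beneath it. They were chosen by gene symbol and not by a threshold on any value, though with earlier results of these data known, and each symbol was found once among the 60676 genes of the deposited count table. They comprise 29 nucleoporins, 11 transport factors and 3 lamina genes. RNA was measured in U2OS cells, an established human osteosarcoma line kept in DMEM with fetal bovine serum, by nRIP-seq, the sequencing of RNA from a native nuclear RNA immunoprecipitation. In that assay RNA bound to a nuclear protein is recovered from a lysate with an antibody, with no crosslinking. The 4 libraries were an LC3B pull-down made with an antibody against LC3B, an IgG pull-down made with non-specific IgG, an LC3B input and an IgG input, the inputs having seen no antibody. LC3B is a ubiquitin-like protein that is joined to autophagosome membranes and is also present in nuclei. The labels give no genetic change or drug for any library, each group is 1 library, and 1 cell line stands for all of them. Differences are thus unreplicated, and none was given a p-value.

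The nuclear pore is a ring-shaped channel through the nuclear envelope, built from many copies of each nucleoporin. A scaffold of Y-shaped complexes and an inner ring surrounds a central channel lined with phenylalanine-glycine repeats, filaments face the cytoplasm, and a basket faces the nucleus. Importins and exportins bind cargo and cross these repeats in a direction set by the GTPase RAN, while the lamins form a meshwork under the inner nuclear membrane. Lamin B1 protein is known as a nuclear partner of LC3 in autophagy of the lamina, which is background on the proteins and not on the mRNAs measured here.

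Library totals were 10456770 reads after LC3B pull-down, 10000914 after IgG pull-down, 10782146 in LC3B input and 10886762 in IgG input. Mitochondrial genes held 0.774% and 1.765% of the reads in the LC3B and IgG pull-downs, against 20.8% and 22.8% in the LC3B and IgG inputs, so levels are given in CPM, the standard depth-scaled unit of read counts, computed here over reads outside the mitochondrial genome. Reads fell on 23915 genes in the LC3B pull-down and on 14440 in the IgG pull-down, against 23082 and 22947 in the LC3B and IgG inputs, so the IgG pull-down held reads on the fewest genes. MALAT1 and NEAT1, long noncoding RNAs retained in the nucleus, were lowest in the LC3B pull-down. MALAT1 had 883 CPM after LC3B pull-down, 4233 after IgG pull-down, 2319 in LC3B input and 2573 in IgG input, and NEAT1 had 46.1 CPM after LC3B pull-down, 118 after IgG pull-down, 105 in LC3B input and 95.4 in IgG input. The part of these differences between the libraries in the results below was not tested. Of 8 mesenchymal and osteoblast markers SPARC was the most abundant, with 2876 CPM after LC3B pull-down, 1445 after IgG pull-down, 2612 in LC3B input and 2207 in IgG input. The 6 markers with more than 3 reads ran from 1.10 (SPARC) to 2.21 (COL1A1) times the input in the LC3B pull-down and from 0.415 (RUNX2) to 1.83 (COL1A1) times in the IgG pull-down. TWIST1, another mesenchymal gene, had 0 reads in all 4 libraries, and COL1A2 had between 0 and 3 reads. The 9 markers of other cell types summed to 20.6 to 26.7 CPM per library, mostly from EPCAM, and CD3E had 0 reads everywhere. As in any bulk library, less of an mRNA per cell and fewer cells holding it cannot be told apart.

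Genes outside the mitochondrial genome entered the comparisons when they averaged 1 CPM or more. This left 15431 genes, called the tested genes below, and all 43 pore, transport and lamina mRNAs passed. Each fold has a 95% interval from the exact binomial (Clopper-Pearson) limits of its read counts. A higher level was called where the whole interval lay at 2 or above, and a lower level where it lay at 0.5 or below. The intervals cover counting error only and say nothing of the spread between pull-downs. PCR copies of one molecule could not be told from separate molecules, so the intervals may be too narrow even for counting error. Between the inputs the median chi-square over genes was 2.59 times that of sampling alone.

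Levels differed widely among the 43 mRNAs. Per transcript length, in the authors' TPM averaged over both inputs, RAN mRNA, which encodes the GTPase that sets the direction of transport, was the most abundant at 2327 TPM. KPNA2, an importin alpha adaptor for classical import signals, followed at 776 TPM. The most abundant nucleoporin mRNA was SEH1L at 191 TPM, whose protein sits in the Y complex and also in the nutrient-sensing GATOR complex. LMNA, which encodes lamins A and C, stood at 112 TPM and was the most abundant lamina mRNA. NUP88 on the cytoplasmic face had 99.1 TPM, and RAE1, an mRNA export factor, had 79.3 TPM. The lowest levels belonged to RANBP2 at 1.98 TPM, NUP153 at 1.67 TPM and NUP210 at 1.09 TPM. RANBP2 forms cytoplasmic filaments, NUP153 belongs to the basket and NUP210 spans the pore membrane.

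Median nucleoporin TPM was 11.1 after LC3B pull-down, 10.4 after IgG pull-down, 23.5 in LC3B input and 22.0 in IgG input. For the transport factors the median was 25.0 TPM after LC3B pull-down, 35.2 after IgG pull-down, 24.3 in LC3B input and 21.2 in IgG input. A median of levels can be set by different genes in each library. Gene by gene, with TPM rescaled to totals outside the mitochondrial genome, 22 of the 29 nucleoporins, 9 of the 11 transport factors and 0 of the 3 lamina genes were below the LC3B input in the LC3B pull-down. In the IgG pull-down 19 nucleoporins, 5 transport factors and 2 lamina genes were below the IgG input. All TPM folds below were taken with this rescaling, called the rescaled TPM.

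**Figure D1:**
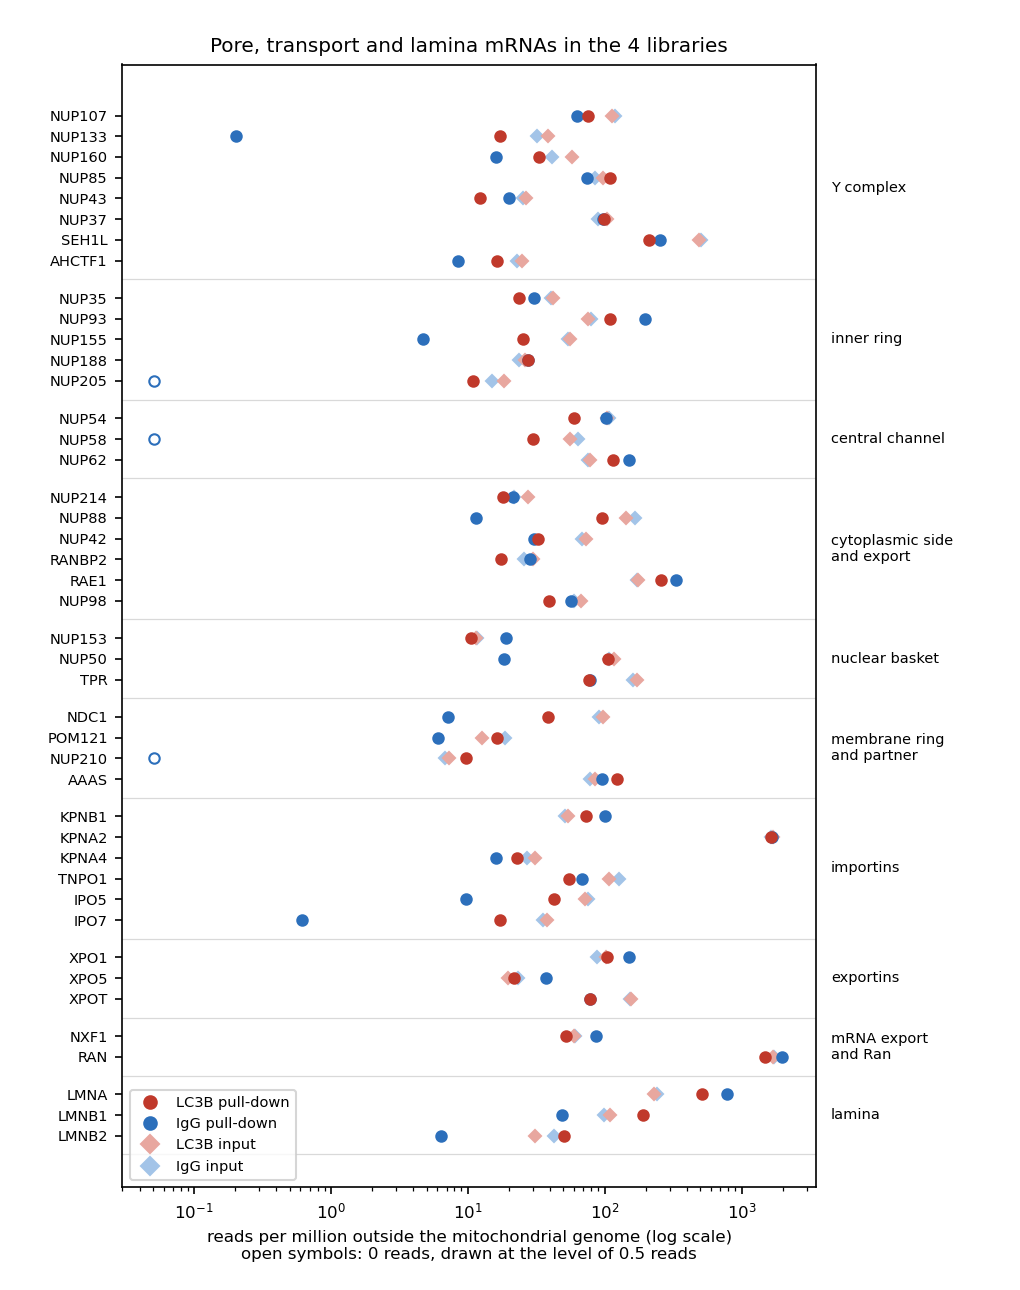
Levels in CPM over reads outside the mitochondrial genome (log scale) of the 43 mRNAs, grouped by the place or role of the protein, with circles for the pull-downs and diamonds for the inputs; open circles mark 0 reads. The inputs nearly coincide in each line, while the IgG pull-down lies far to the left for NUP58, NUP205, NUP210, NUP133 and IPO7.

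The inputs were close to each other for these mRNAs. None of the 43 was called higher or lower between them (LC3B input over IgG input), where 0.136% of tested genes were called higher and 0.156% lower. NUP160, a Y complex scaffold gene, had the highest fold at 1.39 (1.21 to 1.60), with 57.6 CPM in LC3B input and 41.5 in IgG input. It was followed by NUP214, an export platform gene, at 1.26 and the inner ring gene NUP205 at 1.21. POM121, a membrane anchor of the pore, had the lowest fold at 0.677 (0.525 to 0.870), with 12.6 CPM in LC3B input and 18.7 in IgG input. LMNB2, a B-type lamin gene, had 0.729 and TNPO1, the importin for proline-tyrosine signals, 0.836. The median log2 ratio of the 43 mRNAs, taken as in all log2 ratios here with 0.5 CPM added to each level, was 0.06, against 0.02 over the tested genes.

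Over its own input, the LC3B pull-down held less of most nucleoporin mRNAs, with few large differences. The fold was below 1 for 29 of the 43 mRNAs (67.4%), against 49.1% of the tested genes, and for 21 of the 29 nucleoporins and 8 of the 11 transport factors. The counting interval lay below 1 for 27 of them (62.8%, against 31.1% of tested genes) and above 1 for 10 (23.3%, against 30.7%). An interval clears 1 more easily in an abundant gene, and the 43 mRNAs had a median of 70.5 CPM in the inputs, against 17.1 for the tested genes. At 30 CPM or more in the inputs the fold was below 1 for 22 of 32 mRNAs (68.8%, against 56.1% of tested genes) and its interval below 1 for 21 (65.6%, against 48.4%). The number below 1 stayed at 29 with median-of-ratios scaling and was 30 with trimmed-mean (TMM) scaling. Scaled by all reads, mitochondrial ones included, it was 23 (53.5%, against 33.1% of the genes tested then).

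The median log2 ratio of LC3B pull-down over LC3B input was -0.59 for the nucleoporins, against 0.01 for the tested genes. With all reads in the totals these medians were -0.28 and 0.32, since that choice shifts every gene upwards. The median of the transport factors was -0.20, which turned to 0.12 with all reads in the totals and was -0.43 without RAN and KPNA2, the most abundant of them. The lamina genes had a median of 0.79.

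Of the 43 mRNAs, 3 were called lower in the LC3B pull-down than in its input (6.98%, against 4.48% of tested genes), and 1 was called higher, against 1.40%. All 3 of the lower ones encode nucleoporins. NDC1, which anchors the pore in the membrane, had 38.3 CPM after LC3B pull-down, 7.13 after IgG pull-down, 98.0 in LC3B input and 91.6 in IgG input. Its fold of LC3B pull-down over LC3B input was 0.391 (0.346 to 0.441), the lowest of the 43. SEH1L had 212 CPM after LC3B pull-down, 254 after IgG pull-down, 493 in LC3B input and 505 in IgG input. Both pull-downs lay well under both inputs for SEH1L, with a fold of 0.431 (0.409 to 0.453) for LC3B over its input and 0.502 (0.478 to 0.528) for IgG over its input. TPR, the main filament of the nuclear basket, had 76.2 CPM after LC3B pull-down, 78.4 after IgG pull-down, 171 in LC3B input and 162 in IgG input. Its folds over input in counts were 0.445 (0.408 to 0.486) for LC3B and 0.485 (0.443 to 0.530) for IgG. In the rescaled TPM they were 0.428 for LC3B and 0.641 for IgG.

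With all reads in the totals, NDC1, SEH1L and TPR had folds of 0.489, 0.539 and 0.558 in the LC3B pull-down over its input and none was called lower. Against the IgG input in place of its own, the LC3B pull-down kept the calls of NDC1 and SEH1L, lost that of TPR at 0.472, and gained TNPO1. A further 5 mRNAs had point folds under 0.5 in the LC3B pull-down over its input with intervals that crossed the bound. They were NUP133, NUP43, NUP155, NUP42 and IPO7, which encode scaffold, inner ring and cytoplasmic nucleoporins and an importin for ribosomal proteins.

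XPOT, the export receptor for tRNA, was likewise lower in both pull-downs by counts. It had 78.1 CPM after LC3B pull-down, 78.0 after IgG pull-down, 156 in LC3B input and 154 in IgG input. The pull-downs were level with each other, with an interval of 0.906 to 1.11 for the fold of LC3B over IgG, and both held near 0.5 of their input, at 0.501 and 0.507. In the rescaled TPM this likeness was gone, with XPOT at 0.553 for LC3B over IgG pull-down. It stood at 0.377 for LC3B over its input and 0.872 for IgG over its input. NUP42 and TNPO1 also lay at like distances below both inputs, with folds of 0.451 and 0.513 for LC3B and 0.449 and 0.537 for IgG.

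The mRNA called higher in the LC3B pull-down over its input was LMNA, at 514 CPM after LC3B pull-down, 783 after IgG pull-down, 230 in LC3B input and 241 in IgG input. Its fold was 2.24 (2.12 to 2.36) for LC3B and 3.25 (3.10 to 3.42) for IgG over their inputs, so the IgG pull-down held more of it than the LC3B pull-down. In the rescaled TPM its fold of LC3B pull-down over LC3B input was 1.88, short of the bound. In the TPM as deposited, at 274 after LC3B pull-down and 115 in LC3B input, it was past the bound. The other mRNAs above their inputs in both pull-downs with intervals clear of 1 were RAE1, NUP62 of the central channel, NUP93 of the inner ring, KPNB1, the importin beta that carries the classical import complex, and AAAS, a membrane ring partner. NUP188, XPO1 and XPO5 were above both as well, but within counting error for LC3B over its input. RAE1 had 257 CPM after LC3B pull-down, 332 after IgG pull-down, 176 in LC3B input and 173 in IgG input. NUP93 had 109 CPM after LC3B pull-down, 198 after IgG pull-down, 75.4 in LC3B input and 80.1 in IgG input. KPNB1 had 73.3 CPM after LC3B pull-down, 101 after IgG pull-down, 53.6 in LC3B input and 51.2 in IgG input. For LMNA, RAE1, NUP93 and KPNB1 alike the IgG pull-down was the highest of the 4 libraries. AAAS differed from them, with 123 CPM after LC3B pull-down, 95.9 after IgG pull-down, 84.9 in LC3B input and 78.5 in IgG input.

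The IgG pull-down was uneven over the 43 mRNAs, as it was over the tested genes. Over the IgG input, 14 of them were called lower (32.6%, against 33.6% of tested genes) and 2 higher (4.65%, against 9.69%). The 14 held 11 nucleoporins, the importins IPO5 and IPO7, and LMNB2, and the 2 were LMNA and NUP93. The fold of NUP93 was 2.47. At 30 to 100 CPM in the inputs 8 of 19 of the mRNAs were called lower, against 22.7% of genes. At 10 to 30 CPM 3 of 10 were, against 35.9%. With all reads in the totals 11 lower calls remained, as those of POM121, AHCTF1 and NUP160 ended. That of POM121 also ended against the LC3B input, and NUP160 stood at 0.531 in the rescaled TPM. The median log2 ratio of IgG pull-down over IgG input was -0.92 for the nucleoporins and -0.43 for the tested genes. It was 0.02 for the transport factors, and -0.72 without RAN and KPNA2.

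In 3 of the 43 mRNAs (6.98%) the IgG pull-down had 0 reads, against 19.7% of tested genes. NUP58, a repeat-bearing lining of the central channel, had 310 reads after LC3B pull-down, 0 after IgG pull-down, 479 in LC3B input and 536 in IgG input. These are 29.9 CPM after LC3B pull-down, 0 after IgG pull-down, 56.1 in LC3B input and 63.8 in IgG input. With 3 reads in place of 0, NUP58 was at least 97.8-fold higher after LC3B than after IgG pull-down, and at least 209-fold lower after IgG pull-down than in its input. A gene at this abundance was seldom without reads in the IgG pull-down, since 102 of the 3580 tested genes with input levels of 30 to 100 CPM had none (2.85%). NUP58 was the only such case among 19 pore, transport and lamina mRNAs in that band.

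NUP205, a scaffold of the inner ring, had 113 reads after LC3B pull-down, 0 after IgG pull-down, 156 in LC3B input and 127 in IgG input. It was at least 35.7-fold higher after LC3B than after IgG pull-down. Of the tested genes with input levels of 10 to 30 CPM, 16.5% were without reads after IgG pull-down, against 1 of 10 of the pore, transport and lamina mRNAs. NUP210 had 100 reads after LC3B pull-down, 0 after IgG pull-down, 62 in LC3B input and 57 in IgG input. It was at least 31.6-fold higher after LC3B than after IgG pull-down, and it was alone among the 43 in the band of 3 to 10 CPM, where 36.7% of tested genes had 0 reads in that library.

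NUP133 of the Y complex had 177 reads after LC3B pull-down, 2 after IgG pull-down, 330 in LC3B input and 271 in IgG input. Its fold of LC3B over IgG pull-down was 83.8, with an interval of 22.9 to 697 that reflects the 2 reads. IPO7 had 178 reads after LC3B pull-down, 6 after IgG pull-down, 325 in LC3B input and 299 in IgG input, a fold of 28.1 (12.7 to 77.6) for LC3B over IgG. NUP133 and IPO7 were thus close to absent from the IgG pull-down and, at 0.442 and 0.451 in counts, below their input in the LC3B pull-down as well. In the rescaled TPM these folds over the LC3B input were 0.894 for NUP133 and 0.584 for IPO7, so NUP133 lay nearer its input.

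Set directly against the IgG pull-down, the LC3B pull-down held 12 of the 43 mRNAs at a called higher level (27.9%, against 33.8% of tested genes) and none at a called lower level, against 9.45%. A share of 27.9% is not above that of the tested genes, but from 1 CPM in the inputs upwards their share fell with abundance. At 30 to 100 CPM in the inputs 7 of 19 mRNAs were called higher, against 20.95% of genes. At 100 CPM or more 3 of 13 were, against 8.56%, and at 10 to 30 CPM 1 of 10, against 37.4%. The 12 comprised 8 of the 29 nucleoporins, 2 of the 11 transport factors and 2 of the 3 lamina genes. Besides NUP58, NUP205, NUP210, NUP133 and IPO7, they were NUP88, NUP50, NUP155, NDC1, IPO5, LMNB1 and LMNB2. All 12 calls held with TMM, with median-of-ratios scaling and with all reads in the totals, and 9 held with bounds of 4-fold. In the rescaled TPM, which gives no counting interval, all 12 had point folds above 2. The TPM folds of LC3B over IgG pull-down were much smaller than the count folds for LMNB2 at 3.14, NUP50 at 2.59 and NUP155 at 2.32, and larger for NUP133 at 232.

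NUP88 had 95.3 CPM after LC3B pull-down, 11.4 after IgG pull-down, 142 in LC3B input and 165 in IgG input. Its fold of LC3B over IgG pull-down was 8.36 (6.87 to 10.3), and it was 0.669 for LC3B and 0.0690 for IgG over their inputs. NUP50, a basket protein that helps release import cargo, had 106 CPM after LC3B pull-down, 18.4 after IgG pull-down, 118 in LC3B input and 108 in IgG input. It was 5.74-fold (4.90 to 6.75) higher after LC3B than after IgG pull-down, and close to its input in the LC3B pull-down at 0.899 (0.824 to 0.980). Both genes belong to the 13 of the 43 mRNAs with 100 CPM or more in the inputs, a band of 2301 tested genes in which the IgG pull-down left none without reads. In that band 3 of the 13, NUP88, NUP50 and LMNB1, were called higher with LC3B than with IgG, against 8.56% of the genes, and none lower, against 7.21%. Over the LC3B input, 1 of the 13, LMNA, was called higher (1.13% of the genes) and 2, SEH1L and TPR, lower (10.3%). Over the IgG input, LMNA was again called higher (3.65%) and NUP88 and NUP50 lower (12.4%).

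NUP155, which links the inner ring to the membrane, had 25.4 CPM after LC3B pull-down, 4.68 after IgG pull-down, 55.5 in LC3B input and 53.8 in IgG input. It was 5.43-fold (3.96 to 7.60) higher after LC3B than after IgG pull-down, and NDC1, given above, was 5.37-fold (4.16 to 7.03) higher. IPO5, an importin for ribosomal proteins and histones, had 42.7 CPM after LC3B pull-down, 9.77 after IgG pull-down, 71.5 in LC3B input and 75.4 in IgG input. Its fold of LC3B over IgG pull-down was 4.37 (3.50 to 5.51). In NUP155, NDC1 and IPO5 the LC3B pull-down lay between the IgG pull-down and the inputs.

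In totals outside the mitochondrial genome, the LC3B pull-down was thus not above its own input beyond counting error for 10 of these 12 mRNAs. NUP210 was 1.33 times its input with an interval of 0.958 to 1.85, and the exceptions were LMNB1 and LMNB2. None of the 12 was called higher over the LC3B input in these totals. With all reads in the totals every fold over input shifts upwards. The intervals of NUP50 and NUP210 then also lay above 1, and LMNB1 was called higher.

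At the other end, NUP153 had 10.5 CPM after LC3B pull-down, 19.1 after IgG pull-down, 11.5 in LC3B input and 11.7 in IgG input, the lowest fold of LC3B over IgG at 0.549 (0.429 to 0.699). NUP93 had 0.552 (0.513 to 0.595). NUP54, a central channel partner of NUP58, had 59.8 CPM after LC3B pull-down, 102 after IgG pull-down, 104 in LC3B input and 107 in IgG input. Its fold of LC3B over IgG pull-down was 0.587 (0.531 to 0.650). XPO5, the export receptor for miRNA precursors, and NXF1, the main mRNA export receptor, had folds of 0.589 and 0.606.

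**Figure D2:**
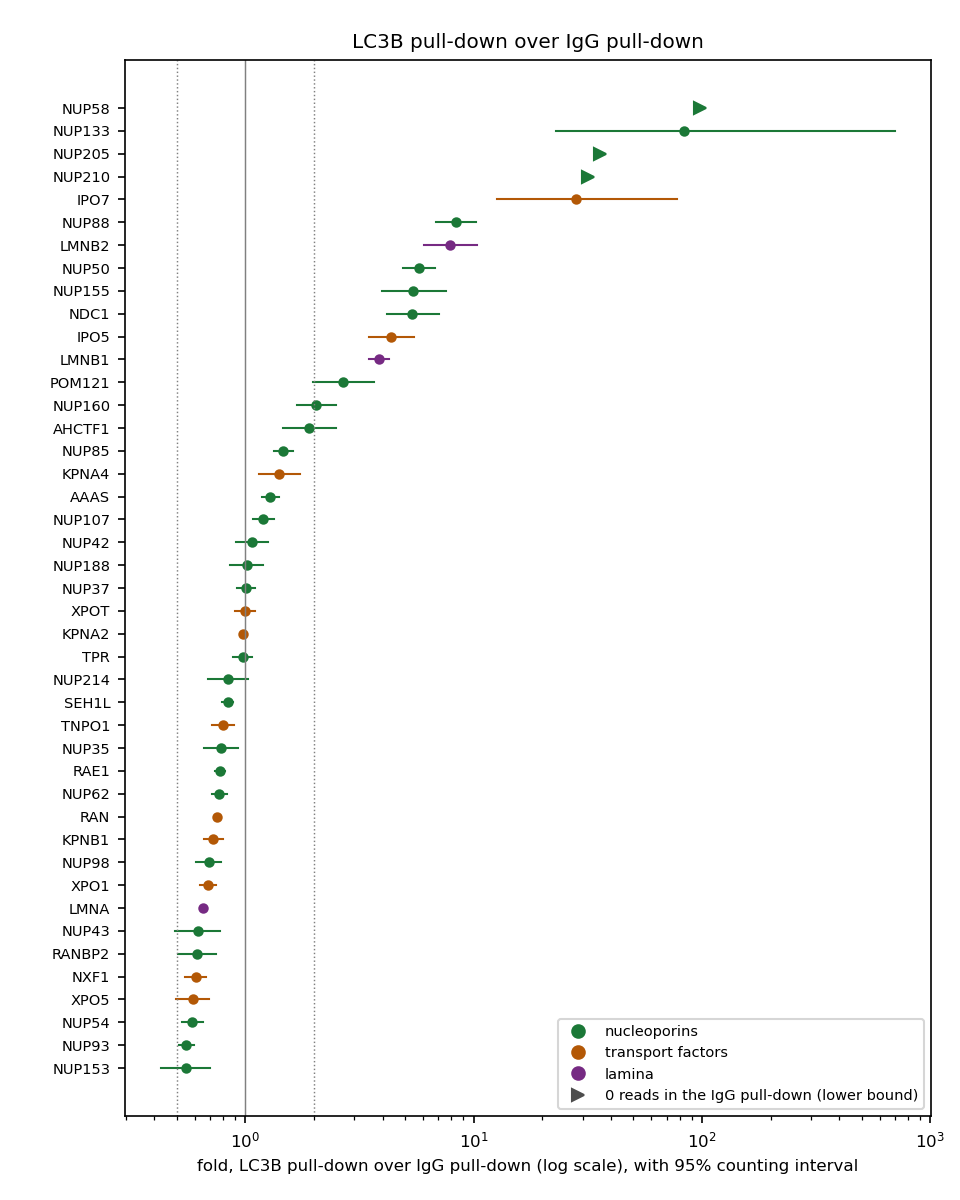
Fold of LC3B pull-down over IgG pull-down (log scale) for each of the 43 mRNAs with its 95% counting interval, coloured by class; triangles are lower bounds for genes with 0 reads in the IgG pull-down, and dotted lines mark the bounds of the calls. The 12 called genes lie to the right, from LMNB1 at 3.86 up to the bound of 97.8 for NUP58, and none is called lower.

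The median log2 ratio of LC3B over IgG pull-down was 0.01 for the 43 mRNAs and 0.10 for the nucleoporins, against 0.41 for the tested genes. The medians of the 43 mRNAs and of the nucleoporins were below 0, at -0.13 and -0.04, with TMM scaling and at -0.10 and -0.02 with median-of-ratios scaling, where the tested genes had 0.28 and 0.30. The transport factors had -0.32 and the lamina genes 1.94. In the plot of log2 ratios by class the nucleoporins spread upwards from a median near 0, while 9 of the 11 transport factors lie close together.

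**Figure D3:**
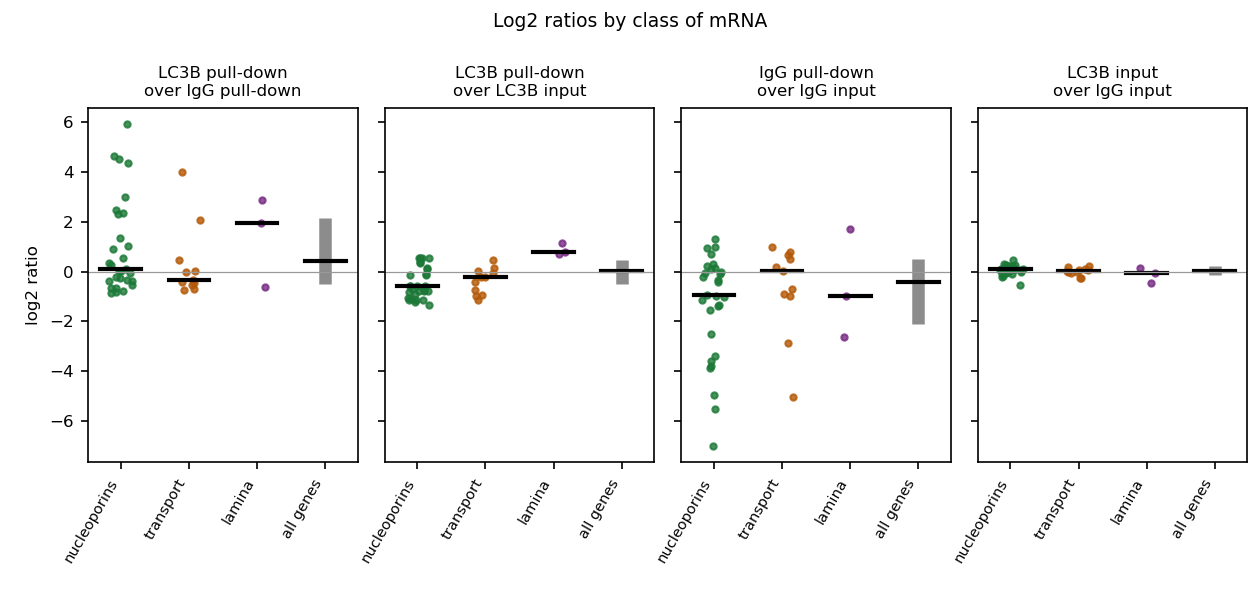
Log2 ratios of nucleoporins, transport factors and lamina genes in the 4 comparisons, computed with 0.5 CPM added to each level, so that points of genes with 0 reads are neither bounds nor folds, 1 point per gene with a black line at the median; the grey bar spans the interquartile range of all tested genes. Points spread widely in both panels with the IgG pull-down and narrowly between the inputs.

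LC3B pull-down and IgG pull-down share no library in their ratios over input, so both ratios can be set side by side. Of the 43 mRNAs, 23 lay below both inputs (53.5%, against 34.3% of tested genes), and 9 lay above both (20.9%, against 23.7%). A further 5 were above input with LC3B and below it with IgG, and 6 were the reverse. With counting intervals clear of 1 on both sides these were 4 (12.3% of tested genes) and 2 (6.57%). Among the nucleoporins, 18 of 29 lay below both inputs. Scaled with all reads, 19 of the 43 lay below both (44.2%, against 20.6% of genes).

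Across the 43 mRNAs the log2 ratio of LC3B over its input went with that of IgG over its input, at a Pearson's r of 0.477 and a Spearman's rho of 0.544. Over the 15431 tested genes r was 0.159 and rho 0.184. With input levels of 30 CPM or more, r was 0.578 over 32 of the mRNAs and 0.323 over 5881 genes. These are descriptions across genes, which share the libraries and are not replicates.

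**Figure D4:**
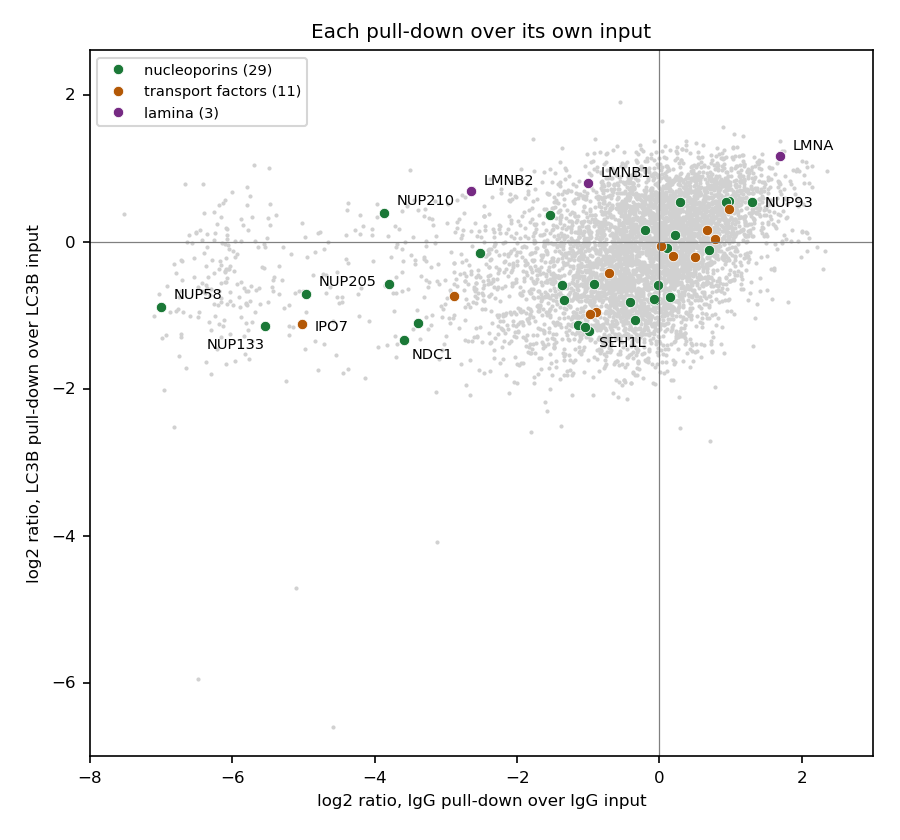
Log2 ratio of LC3B pull-down over LC3B input against that of IgG pull-down over IgG input for the 43 mRNAs, coloured by class, over the 5881 tested genes with input levels of 30 CPM or more in grey. Most nucleoporins lie in the lower left, below both inputs; LMNA lies at the upper right and LMNB1 and LMNB2 above input with LC3B only.

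The 3 lamina genes did not share a pattern, since LMNA and the B-type lamins LMNB1 and LMNB2 differed in which pull-down held more. LMNB1, the main B-type lamin gene, had 189 CPM after LC3B pull-down, 49.1 after IgG pull-down, 109 in LC3B input and 98.5 in IgG input. LMNB2 had 50.5 CPM after LC3B pull-down, 6.41 after IgG pull-down, 31.1 in LC3B input and 42.7 in IgG input. For both B-type lamins the LC3B pull-down was the highest and the IgG pull-down the lowest of the 4 libraries, as also for NUP85 and NUP210. LMNB1 was 3.86-fold (3.49 to 4.27) higher after LC3B than after IgG pull-down, and 1.74 (1.60 to 1.88) times its input in the LC3B pull-down. LMNB2 was 7.88-fold (6.06 to 10.4) higher after LC3B than after IgG pull-down, or 3.14-fold in the rescaled TPM. It was 1.62 (1.40 to 1.89) times its input in the LC3B pull-down, though its inputs differed by a fold of 0.729. Neither was called higher over the LC3B input, and with all reads in the totals LMNB1 was.

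LMNA ran the other way between the pull-downs, at a fold of 0.656 (0.634 to 0.680) for LC3B over IgG. Because LMNA carried most lamina reads, the lamina genes together made up 0.0754% of the reads outside the mitochondrial genome after LC3B pull-down and 0.0839% after IgG pull-down. They made up 0.0370% in LC3B input and 0.0382% in IgG input. The summed lamina reads were thus 2.04-fold (1.95 to 2.12) higher in the LC3B pull-down and 2.19-fold (2.11 to 2.29) higher in the IgG pull-down than in their inputs. The sum hides that the A-type and B-type genes differ in which pull-down held more of them.

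The nucleoporins together made up 0.181% of such reads after LC3B pull-down, 0.175% after IgG pull-down, 0.243% in LC3B input and 0.237% in IgG input. Summed, they were at 0.747 (0.732 to 0.762) of the input in the LC3B pull-down and at 0.738 (0.723 to 0.753) in the IgG pull-down. Without SEH1L, the most abundant of them, these values were 0.827 and 0.801. The nucleoporin total thus differed little between the antibodies, at 1.04 (1.02 to 1.06) for LC3B over IgG, although 8 of its members were called higher.

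The transport factors made up 0.359% of such reads after LC3B pull-down, 0.421% after IgG pull-down, 0.406% in LC3B input and 0.403% in IgG input. RAN and KPNA2 held most of these reads. RAN had 1488 CPM after LC3B pull-down, 1981 after IgG pull-down, 1710 in LC3B input and 1740 in IgG input. KPNA2 had 1637 CPM after LC3B pull-down, 1676 after IgG pull-down, 1708 in LC3B input and 1650 in IgG input, the most even of the abundant mRNAs. Without these genes the other 9 transport factors were, in sum, at 0.732 (0.704 to 0.761) of the input in the LC3B pull-down and 0.854 (0.823 to 0.887) in the IgG pull-down. The summed share of transport mRNA over input in the LC3B pull-down, 0.885 (0.873 to 0.899), is therefore mostly that of RAN and KPNA2.

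**Figure D5:**
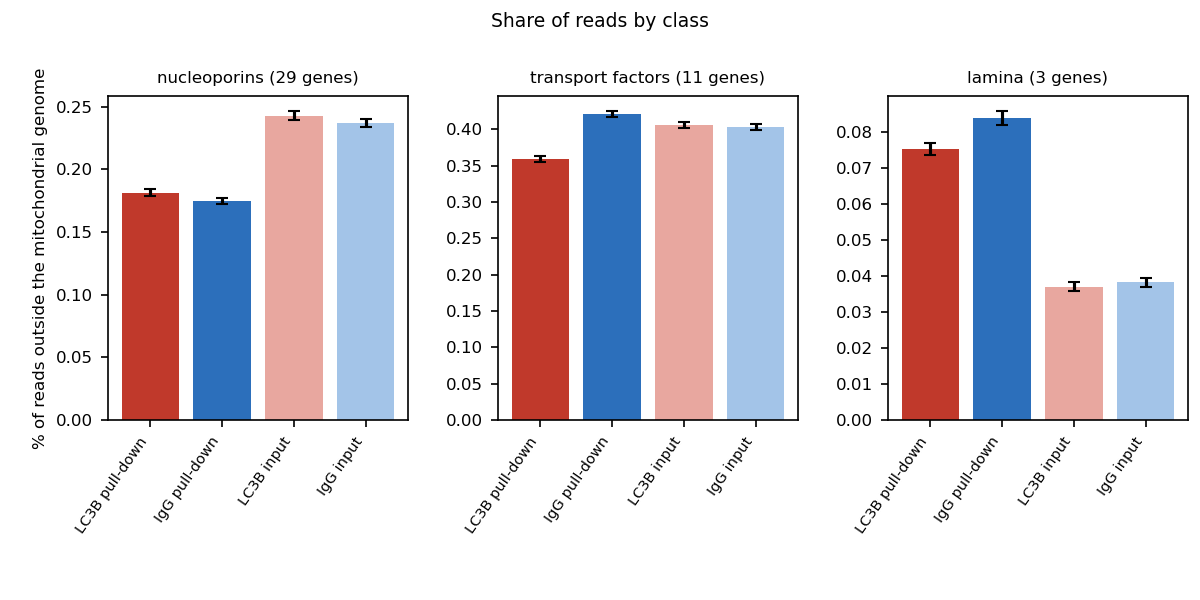
Percent of reads outside the mitochondrial genome held by the nucleoporins, transport factors and lamina genes in each library, with exact binomial 95% intervals as error bars; each panel has its own axis from 0. Nucleoporins are lower in both pull-downs than in the inputs, and lamina genes higher in both.

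Genes whose proteins share a subcomplex did not share a ratio. In the Y complex the fold of LC3B over IgG pull-down ran from 0.618 for NUP43 to 83.8 for NUP133, and NUP37 and NUP107 stood at 1.01 and 1.20. NUP85, another Y complex gene, stood at 1.47. NUP160 was at 2.05 (1.69 to 2.49) and AHCTF1, whose protein ELYS brings the Y complex to chromatin, at 1.91 (1.46 to 2.51), neither past the bound. In the inner ring NUP93 had 0.552, NUP35 0.781 and NUP188 1.01, whereas NUP155 and NUP205 were called higher. In the central channel NUP54 and NUP62 had 0.587 and 0.771 beside the bound of 97.8 for NUP58, whose protein forms a complex with both.

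The cytoplasmic side gave a like spread, with RANBP2 at 0.618, NUP98 at 0.691, RAE1 at 0.773, NUP214 at 0.844 and NUP42 at 1.07 beside NUP88 at 8.36. NUP98 and RAE1 proteins act together in mRNA export, and NUP88 and NUP214 proteins form 1 export platform. In the membrane ring and its partner AAAS, all 4 folds of LC3B over IgG pull-down were above 1, with AAAS at 1.28 (1.18 to 1.40) and POM121 at 2.68 (1.99 to 3.66), just short of the bound. None of the 3 exportins was called, with XPO1, the receptor for leucine-rich export signals, at 0.689 (0.636 to 0.745).

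The 43 mRNAs are longer than most. Length was read from the count per unit of TPM, set relative to the median tested gene of each library, since transcript lengths were not stated. The median relative length was 1.48 for the 43 mRNAs and 1.01 for the tested genes, and their genes span a median of 58859 bases, against 29241. Of the 43, 26 fall in the longest of 3 equal-sized length groups of tested genes. In that group the median log2 ratio of LC3B pull-down over LC3B input was -0.59 for the 26 mRNAs and -0.19 for all genes, and in the middle group it was -0.20 for 13 mRNAs and 0.02 for all genes. For IgG pull-down over IgG input it was -1.19 for the 26 mRNAs and -1.16 for all genes of the longest group, and -0.07 for 13 mRNAs and -0.47 for all genes of the middle group. In the longest group, then, the IgG median of these mRNAs was near that of all genes, while their LC3B median over input was lower. In the middle group their IgG median was the higher. The shortest group held 4 of the mRNAs, with medians of -0.39 for LC3B and -0.52 for IgG over input. All genes of that group had 0.21 for LC3B and -0.01 for IgG. The groups were not matched for abundance. Within the 43 the ratio over input had a rho with length of -0.110 for LC3B and -0.300 for IgG, against -0.233 for LC3B and -0.254 for IgG over the tested genes. In the 32 mRNAs with 30 CPM or more in the inputs these were -0.271 for LC3B and -0.450 for IgG. The part of length in these ratios was not tested.

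Within the bands of abundance from 10 CPM upwards the LC3B ratio over input was again lower for these mRNAs than for all tested genes, while the IgG ratio varied by band. NUP210, alone at 3 to 10 CPM, had a log2 ratio over LC3B input of 0.39, against a median of 0.08 for all genes. Among genes of 30 to 100 CPM in the inputs the median log2 ratio of LC3B pull-down over LC3B input was -0.74 for 19 of the mRNAs and -0.09 for all tested genes. At 100 CPM and over it was -0.58 for 13 of the mRNAs and -0.13 for all genes, and at 10 to 30 CPM -0.51 for 10 of the mRNAs and 0.02 for all genes. For IgG pull-down over IgG input the median at 30 to 100 CPM was -0.41 for the mRNAs and -0.25 for all genes. At 100 CPM and over it was -0.92 for the mRNAs and -0.13 for all genes. The order was reversed at 10 to 30 CPM, with -0.19 for the mRNAs and -0.44 for all genes.

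Count and rescaled TPM folds differed by more than 1.5 times in 10 of 40 mRNAs for LC3B over IgG pull-down. They did so in 2 of 43 for LC3B pull-down over LC3B input and in 7 of 40 for IgG pull-down over IgG input. The 10 were NUP133, NUP160, NUP155, RANBP2, NUP50, TPR, KPNA4, XPO5, XPOT and LMNB2. KPNA4, an importin alpha, turned direction, at 1.41 in counts and 0.791 in TPM for LC3B over IgG pull-down, and at 0.602 in counts and 1.24 in TPM for IgG pull-down over IgG input. The 2 over the LC3B input were NUP133 and XPO5. For NUP133 the fold of LC3B pull-down over LC3B input was 0.442 in counts and 0.894 in TPM, and its relative length after LC3B pull-down was 0.463 times that in LC3B input. For XPO5 the count fold was 1.12 and the TPM fold 0.456, and its relative length after LC3B pull-down was 2.30 times that in LC3B input. XPO5 also differed between the inputs, at a count fold of 0.843 and a TPM fold of 1.81 for LC3B input over IgG input. NUP205 did so as well, at 1.21 in counts and 1.86 in TPM. Relative length comes from the same counts and TPM, so it restates these differences and is not a separate observation. It differed by more than 1.5 times between LC3B pull-down and LC3B input in 3 of the 43 mRNAs, against 7.34% of tested genes. It did so in 10 of 40 mRNAs between the pull-downs, against 18.04% of genes, and in 7 of 40 between IgG pull-down and IgG input, against 18.5%.

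Several of these genes have near-identical copies with which reads may be shared. The 7 RGPD genes, copies of RANBP2, held 246 reads after LC3B pull-down, 399 after IgG pull-down, 388 in LC3B input and 296 in IgG input. RANBP2 itself held 182 after LC3B pull-down, 279 after IgG pull-down, 255 in LC3B input and 215 in IgG input, so its values are uncertain. The 14 copies of POM121 held 95 reads after LC3B pull-down, 0 after IgG pull-down, 68 in LC3B input and 96 in IgG input, where POM121 itself held 170 reads after LC3B pull-down, 60 after IgG pull-down, 108 in LC3B input and 157 in IgG input. The pseudogenes of RAN and KPNA2 held no more than 19 reads in any library, and 13 copies of NUP35, NUP58, NUP210, TNPO1, IPO5, IPO7 and XPOT together held at most 16. The strand setting is not given in the sources used here, so reads of overlapping and antisense genes cannot be told apart from those of the genes named.

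Among 42 other genes of transport and the nuclear envelope, 8 were called higher after LC3B than after IgG pull-down and 2 lower, smaller shares than the 33.8% and 9.45% of tested genes. The median log2 ratio was 0.49, against 0.41 for the tested genes. TMPO, which encodes the lamina-associated polypeptides, had 191 CPM after LC3B pull-down, 56.7 after IgG pull-down, 255 in LC3B input and 242 in IgG input, a fold of 3.36 (3.06 to 3.70) for LC3B over IgG. KPNA3, an importin alpha, had 264 reads after LC3B pull-down, 0 after IgG pull-down, 548 in LC3B input and 528 in IgG input. It was at least 83.3-fold higher after LC3B than after IgG pull-down, yet called lower over the LC3B input at 0.397. NUP58 likewise had 0 reads after IgG pull-down and lay below the LC3B input at 0.533, but was not called lower there. LEMD2, an inner nuclear membrane gene, was 2.96-fold higher after LC3B than after IgG pull-down. The lower ones were KPNA5, an importin alpha, at 0.145 and LEMD3, an inner nuclear membrane gene, at 0.395. None of the 5 Ran cycle genes and none of the 9 mRNA export genes was called in that comparison. Over the LC3B input, 2 of the 42 were called lower, KPNA3 and the exportin XPO4, and none higher.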

How the data were processed

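SMART-Seq v4, a method for small RNA amounts, was used for all 4 libraries, per the labels' protocols. The authors deposited raw read counts per gene, as whole numbers with commas between digit groups, which were stripped before use. The authors also deposited TPM values, scaled within each library and per transcript length, per the file headers. Trimming software cutadapt 2.8, aligner STAR 2.7.1a and build hg38 are named in the submitters' processing notes. How reads were counted (tool, annotation, strand, multi-mapping reads) is not given in the sources used here.

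From the counts, CPM was computed with library totals outside the mitochondrial genome, whose 37 genes were left out of the tested genes. Genes averaging 1 CPM or more over the libraries were tested. Folds have exact Clopper-Pearson 95% intervals with bounds of 2 and 0.5, log2 ratios have 0.5 CPM added, and a count of 0 was set to 3 reads in bounds; 3 reads are 0.289 CPM after LC3B pull-down, 0.305 after IgG pull-down, 0.351 in LC3B input and 0.357 in IgG input. With 1 library per group no test across samples was possible. The code was checked on simulated data. Python 3.11.15, numpy 2.4.6, pandas 2.3.3, scipy 1.17.1 and matplotlib 3.10.9 were used.

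Alternatives were totals with all genes, TMM and median-of-ratios scaling (in purpose-written code), a filter of 5 CPM or none, 4-fold bounds, point folds, deposited TPM rescaled to totals outside the mitochondrial genome, pseudocounts of 0.1 and 1, leaving out RANBP2, POM121, RAN, KPNA2 and NUP50, at most 3 reads in the IgG pull-down, the other antibody's input, and input levels of 100 CPM or more. The genes left out were picked as members with copies, but a search by symbol found no copy of NUP50. Copies of NUP35, NUP58, NUP210, TNPO1, IPO5, IPO7 and XPOT were found, and these members were kept. Values in all 4 libraries are given for genes called in LC3B over IgG pull-down or over LC3B input, those with 0 reads in the IgG pull-down, the extremes of each comparison, and the most abundant of each class. Classes follow the known place of each protein. The members, classes, lists and rules were chosen with earlier results of these data known. The inputs were not copies of one library, as their median chi-square over genes was 2.59 times that of sampling alone, and no libraries held identical values.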

Additional observations from a re-analysis of the deposited data

Results flagged for a closer look

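For 6 of the 43 mRNAs the pull-downs moved in opposite directions from their inputs with counting intervals that exclude 1, in totals outside the mitochondrial genome. With 1 library per group the difference between the antibodies was not tested. Above input with LC3B and below it with IgG were 4 of 43 mRNAs, against 12.3% of tested genes. NUP85 had a fold of 1.11 (1.01 to 1.22) in the LC3B pull-down and 0.870 (0.783 to 0.966) in the IgG pull-down over input. POM121 had 1.30 (1.01 to 1.67) with LC3B and 0.327 (0.239 to 0.443) with IgG, and it shares sequence with copies elsewhere. Its inputs differed by a fold of 0.677 (0.525 to 0.870). At 16.4 CPM the LC3B pull-down lay above the LC3B input (12.6 CPM) but below the IgG input (18.7 CPM). LMNB1 had 1.74 (1.60 to 1.88) with LC3B and 0.498 (0.444 to 0.558) with IgG. LMNB2 had 1.62 (1.40 to 1.89) with LC3B and 0.150 (0.113 to 0.197) with IgG.

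The reverse held for 2 of 43, against 6.57% of tested genes. RAN had 0.870 (0.851 to 0.890) with LC3B and 1.14 (1.11 to 1.16) with IgG. NXF1 had 0.867 (0.767 to 0.980) with LC3B and 1.42 (1.27 to 1.59) with IgG. With all reads in the totals, RAN and NXF1 lay above the LC3B input and NUP85 above the IgG input. The directions of RAN, NXF1 and NUP85 were then no longer opposite.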

How the results depend on the processing

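No paired analysis was possible because each group holds 1 library, and the pull-downs, made with different antibodies, are not replicates of each other. No member's call changed direction under any alternative run, and TMM and median-of-ratios scaling moved no count by over 1.5 times and ended 1 call, AHCTF1 in IgG over its input, at 0.389 and 0.392. Comparisons are given in the order LC3B over IgG, LC3B over its input, IgG over its input and LC3B input over IgG input, where named. With all reads in the totals, members higher over input were 2 for LC3B and 5 for IgG, and 0 lower for LC3B. Tested genes higher over input were then 880 and 2355, and 250 were lower for LC3B. Medians over input for LC3B and IgG were then -0.25 and -0.37 for members, -0.28 and -0.58 for nucleoporins, 0.12 and 0.37 for transport factors, and 1.12 and -0.65 for lamina genes. In rescaled TPM, members lower were 2 in LC3B over IgG and 11 in LC3B over input. Higher ones were 0 in LC3B and 4 in IgG over input. Tested genes lower were 2356 in LC3B over IgG, 2157 in LC3B over input and 461 between inputs, and higher ones 1135 in LC3B over input and 679 between inputs. TPM medians were -0.49 and -0.47 for transport factors and 1.56 and 0.91 for lamina genes in LC3B over IgG and over input. In IgG over input they were -0.19 for members, -0.64 for nucleoporins and -0.83 for lamina genes. With bounds of 4-fold, 0 members were higher or lower in LC3B over input and 0 higher in IgG over input. Tested genes higher were then 13 in LC3B and 366 in IgG over input and 6 between inputs, and lower ones 377 in LC3B over IgG, 35 in LC3B over input and 9 between inputs. With point folds, 8 members were lower in LC3B over input. Tested genes higher were 1225 in LC3B and 2306 in IgG over input and 462 between inputs, and lower ones 2214 in LC3B over IgG, 1700 in LC3B over input and 324 between inputs. A filter of 5 CPM left 2923 genes higher in LC3B over IgG, 2974 lower in IgG over input, and 1 higher and 6 lower between inputs. No filter gave 61 and 53 between inputs. Without RANBP2, POM121, RAN, KPNA2 and NUP50 the transport median over input was -0.43 for LC3B and -0.72 for IgG. Alternatives chosen after seeing the data were the other antibody's input, which moved no count by over 1.5 times, and input levels of 100 CPM or more. There, 3 members were higher in LC3B over IgG, and 1 was higher and 2 lower in IgG over input, because fewer genes were counted. For the other changes the cause was not tested. Few or 0 reads in the IgG pull-down leave NUP58, NUP205, NUP210, NUP133 and IPO7 with wide or open intervals, and 1 library per group limits every value.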
